A study of Mus musculus with 4 samples.

Results

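The genes described here are the 7 MHC class II presentation genes H2-Aa, H2-Ab1, H2-Eb1, Cd74, Ciita, H2-DMa and H2-DMb1, which were chosen by their symbols out of 32285 genes in the feature list of the scRNA-Seq matrices. All 7 were found. The cells were LSK cells, which lack lineage markers, carry Sca-1 and cKit and hold the stem cells and multipotent progenitors of mouse bone marrow. Both genotypes came from C57BL/6 mice: Sin3B F/F animals served as wild type (Sin3B+/+), and F/F animals crossed to Vav1-iCre, a Cre that is active in blood cells from the embryo on, had lost Sin3B in the hematopoietic system (Sin3B-/-). Cells were taken from untreated male mice (homeostasis) or from mice that had received 100 mg/kg of 5-fluorouracil (5-FU), a drug that kills dividing cells, 9 days earlier. The sources used here give the mice as adults, with no age in weeks. Cells of 2 mice were pooled for each genotype and condition, stained with a hashtag antibody that differed between the genotypes, and loaded together in 1 library per condition.

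Because every genotype was 1 pool in each library, no replicate test was possible, and no p-values are given. Levels are CPM, the UMIs (counted RNA molecules) of a gene per 1000000 UMIs of the pool, and differences are log2 ratios of CPM. Intervals in square brackets are 95% intervals for counting error only and do not hold the spread between mice. Those of levels and ratios treat each UMI as independent, so they also leave out the spread between cells and can be too narrow. Condition coincides with library, so homeostasis and 5-FU cannot be told apart from their libraries, and genotypes were compared within each library. Genotype likewise coincides with the hashtag antibody.

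MHC class II molecules present peptides taken up from outside the cell to CD4+ T cells, and they are best known from dendritic cells, macrophages and B cells. H2-Aa and H2-Ab1 encode the alpha and beta chains of I-A, and H2-Eb1 encodes the beta chain of I-E, whose alpha chain is not made in C57BL/6 mice. Cd74 is the invariant chain that guides new class II molecules and blocks their groove, H2-DMa and H2-DMb1 form the H2-DM dimer that exchanges the remnant of Cd74 for a peptide, and Ciita is the coactivator that switches the group on. Ciita does not bind DNA itself but docks on factors bound to the X and Y boxes upstream of class II genes.

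The boxes are shown as background, and whether they relate to the levels of the members was not tested. RefSeq windows of 250 bases before to 50 bases after the start (build GRCm38.p6) were used for 4 members, H2-Aa, H2-Eb1, H2-DMa and H2-DMb1. Cd74 was left out of this search, and no windows of H2-Ab1 and Ciita were at hand. The windows were searched on the strand of the gene for an X box core, GNAAC. The Y box core GATTGG had to follow it after 20 to 45 bases. Each sequence below runs 5′ to 3′ on the strand of its gene, with the cores in capitals.
H2-Aa, chr17:34287827-34287944, minus strand: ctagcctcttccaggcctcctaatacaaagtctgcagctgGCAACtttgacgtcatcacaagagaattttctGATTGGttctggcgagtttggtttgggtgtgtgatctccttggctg
H2-Eb1, chr17:34305736-34305852, plus strand: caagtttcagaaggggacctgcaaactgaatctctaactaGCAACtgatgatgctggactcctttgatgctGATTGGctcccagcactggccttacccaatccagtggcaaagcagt
H2-DMb1, chr17:34153057-34153174, plus strand: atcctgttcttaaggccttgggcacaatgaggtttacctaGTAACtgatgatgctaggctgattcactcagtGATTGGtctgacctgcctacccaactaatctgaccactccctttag
In H2-Aa the X core began 81 bases and the Y core 49 bases before the start, with 27 bases between them. The spacing was 26 bases in H2-Eb1 and 27 bases in H2-DMb1. This pair of cores stood in 3 of the 4 members searched, and on the strand of the gene in 0.728% of 32851 RefSeq windows. The windows of H2-DMa held no such pair in these letters on the strand of the gene, and the other strand was not searched.

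At homeostasis, 10184 Sin3B+/+ and 4108 Sin3B-/- cells were kept, and 4855 and 3307 after 5-FU. Cells held a median of 6967 (Sin3B+/+) and 6606.5 (Sin3B-/-) UMIs in the first library and of 9306 and 10935 in the second. Sin3b itself stood at 81.7 CPM in Sin3B+/+ and 23.3 CPM in Sin3B-/- cells at homeostasis, and at 113 and 15.1 CPM after 5-FU, so both tags matched their genotypes. The libraries shared 76 cell barcodes. All 9 stem markers (among them Procr, Hlf and Mecom) and all 9 progenitor markers (among them Cd34, Flt3 and Mpo) were detected in each pool. Detection needed only 1 UMI in a whole pool and so does not identify the cells. All 9 B lineage and all 9 dendritic markers were also detected in both pools at homeostasis. Cells were placed by their highest published signature score in a long-term stem cell (LT-HSC) or short-term stem cell (ST-HSC) class or in 1 of 3 multipotent progenitor classes (MPP2, MPP3, MPP4). Such a class is a range of a score and not a cell type, and 20.8% of classed cells at homeostasis and 19.4% after 5-FU had their best scores within 0.2 SD of each other.

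Most LSK cells held few class II transcripts. For shares, cells were thinned to 4000 UMIs, and those with fewer were left out. These were 484 Sin3B+/+ and 228 Sin3B-/- cells at homeostasis, and 512 and 170 after 5-FU. At least 1 UMI of any member stood in 63.2% [62.3 to 64.2] of 9700 Sin3B+/+ cells and in 53.7% [52.1 to 55.3] of 3880 Sin3B-/- cells at homeostasis. After 5-FU the shares were 66.4% [65.0 to 67.8] and 63.5% [61.8 to 65.2]. Without thinning, and with the cells under 4000 UMIs included, they were 81.3%, 72.4%, 86.1% and 89.3%, in the same order. The Sin3B-/- share was thus the higher one after 5-FU only in unthinned cells, whose depth differed and which were not the same set.

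H2-DMa supplied most of these positive cells. At homeostasis it was found in 39.4% of Sin3B+/+ and 34.7% of Sin3B-/- cells, and after 5-FU in 46.8% and 46.4%. Its partner H2-DMb1 was found in 8.3%, 6.8%, 10.8% and 8.4% of cells in the 4 pools, in the same order. H2-DMb1 has a near-identical neighbor, H2-DMb2, and reads that could be split between them make its counts uncertain.

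Of the I-A chains, H2-Ab1 was found at homeostasis in 18.6% of Sin3B+/+ and 13.0% of Sin3B-/- cells, and after 5-FU in 20.4% and 18.3%. H2-Aa was found in 9.6%, 7.0%, 9.2% and 8.1%. The I-E beta chain H2-Eb1 was close to H2-Aa, with 7.1%, 6.6%, 8.8% and 7.5%. Cd74 was found in 11.2%, 8.5%, 8.5% and 9.5%, and Ciita in 2.0%, 1.6%, 1.4% and 1.3%. The shares of different genes also depend on how well the 3′ end of each transcript is captured.

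Part of these shares can come from RNA that floats free in the droplets. In 56160 nearly empty barcodes of the homeostasis library, Cd74 stood at 272 CPM, H2-Ab1 at 142 CPM, H2-Aa at 135 CPM and H2-Eb1 at 112 CPM. These values lay above those of the Sin3B+/+ cells, which were 42.4, 55.8, 30.4 and 20.8 CPM. H2-DMa, by contrast, stood at 89.9 CPM in empty barcodes and at 125 CPM in Sin3B+/+ cells, and Ciita at 1.9 and 4.9 CPM. How much free RNA a cell takes up was not measured. If 100 of its 4000 UMIs were free RNA, 2.7% of cells would hold a UMI of Cd74, 1.4% one of H2-Ab1, 1.3% one of H2-Aa and 1.1% one of H2-Eb1. The MPP2 class after 5-FU had the lowest shares, 2.7% and 1.2% for H2-Aa and 2.1% and 1.9% for Cd74 in Sin3B+/+ and Sin3B-/- cells. Empty barcodes of the 5-FU library were not analysed here.

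Cells with a UMI of H2-Aa more often held one of Cd74 or H2-Eb1 than cells without it, by the shares below. Among thinned Sin3B+/+ cells at homeostasis, Cd74 was found in 33.4% of the 935 H2-Aa-positive cells and in 8.8% of the others. After 5-FU the same shares were 39.2% and 5.5% in Sin3B+/+ cells and 51.2% and 5.9% in Sin3B-/- cells. H2-Eb1 was found in 22.1% of H2-Aa-positive and 5.5% of H2-Aa-negative Sin3B+/+ cells at homeostasis. H2-DMa was found in 40.3% and 39.3% of these cells, in 39.7% and 34.4% of the Sin3B-/- cells at homeostasis, and after 5-FU in 54.8% and 46.0% of Sin3B+/+ and 57.5% and 45.4% of Sin3B-/- cells.

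H2-Aa and H2-Eb1 were higher in the LT-HSC class than in the progenitor classes in every pool, while the other members varied between pools. H2-Aa stood at 56.5 CPM in the LT-HSC class of Sin3B+/+ cells at homeostasis and at 24.6 CPM in the MPP2, MPP3 and MPP4 classes together. The same pair of levels was 33.8 and 22.1 CPM in Sin3B-/- cells at homeostasis, 48.0 and 20.4 CPM in Sin3B+/+ cells after 5-FU, and 52.8 and 12.6 CPM in Sin3B-/- cells after 5-FU. H2-Aa was therefore higher in the LT-HSC class in all 4 pools, by 1.20 [1.07 to 1.34], 0.61 [0.39 to 0.82], 1.24 [1.04 to 1.43] and 2.06 [1.86 to 2.26] on the log2 scale. H2-Eb1 was also higher in all 4 pools, by 0.82, 0.56, 1.34 and 2.25. Of all genes tested, 16.4% were higher in the LT-HSC class in all 4 pools with every interval above 0, as were these 2 of 7 members. In Sin3B-/- cells at homeostasis the direction depended on the assignment of genotypes. When the genotype instead followed from 1 tag holding 80% of the hashtag UMIs of a cell, this pool had 869 cells. H2-Aa was then at -0.99 [-1.34 to -0.66] and H2-Eb1 at -0.97 [-1.34 to -0.62].

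Cd74 followed H2-Aa in 3 of the pools. It stood at 65.1 CPM in the LT-HSC class and 38.3 CPM in the MPP classes of Sin3B+/+ cells at homeostasis, a difference of 0.77 [0.65 to 0.89]. In Sin3B-/- cells at homeostasis it stood at 43.6 and 42.4 CPM, a difference of 0.04 [-0.13 to 0.21] that was -1.65 [-1.94 to -1.38] under the 80% tag rule and -0.22 [-0.38 to -0.06] without the quality filter. After 5-FU the difference was 0.68 [0.50 to 0.86] in Sin3B+/+ cells and 2.09 [1.93 to 2.24] in Sin3B-/- cells, where the levels were 88.4 and 20.8 CPM. The size of these differences depended on cells with markers of other types, taken as 2 or more UMIs of B lineage, dendritic or monocyte and macrophage markers. Without them the Cd74 differences in the 4 pools were 1.48, 1.502, 0.99 [0.69 to 1.27] and 1.05 [0.81 to 1.29], those of H2-Aa 1.75, 1.63, 1.54 [1.22 to 1.85] and 1.23 [0.91 to 1.55], and those of H2-Eb1 1.31, 1.36, 1.43 and 1.48. After 5-FU the intervals of the genotypes then overlapped for each of these genes. The median of all genes was itself 0.13 higher in the LT-HSC class in Sin3B-/- cells after 5-FU and 0.04 to 0.09 higher in the other pools.

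H2-Ab1 did not share this pattern, although its product pairs with that of H2-Aa. Its level in the LT-HSC class was 56.0, 37.9, 49.2 and 65.4 CPM in the 4 pools, against 54.8, 45.2, 61.4 and 49.8 CPM in the MPP classes. The differences were 0.03, -0.25, -0.32 and 0.39, so the direction changed between pools. H2-DMa differed by -0.13, -0.23, -0.20 and 0.02, with intervals below 0 in the first 3 pools, and by -0.39, -0.40, -0.46 and -0.21 when stem and progenitor cells were taken by marker gates, and H2-DMb1 by 0.38, 0.29, -0.02 and 0.77. Ciita, with 33 to 81 UMIs in the LT-HSC class of each pool, differed by 0.55 [0.16 to 0.92], -0.10 [-0.70 to 0.47], 0.50 [-0.12 to 1.06] and 0.85 [0.32 to 1.37].

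At least 2-fold higher levels in the LT-HSC class were seen for H2-Aa in Sin3B+/+ cells at homeostasis (1 of 7 members, against 5.69% of all genes), for no member in Sin3B-/- cells at homeostasis (4.94%), for H2-Aa and H2-Eb1 in Sin3B+/+ cells after 5-FU (4.13%), and for H2-Aa, H2-Eb1 and Cd74 in Sin3B-/- cells after 5-FU (7.02%). No member was at least 2-fold lower in any pool. The backgrounds for that direction were 4.6%, 4.46%, 4.38% and 5.27% of all genes.

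**Figure D1:**
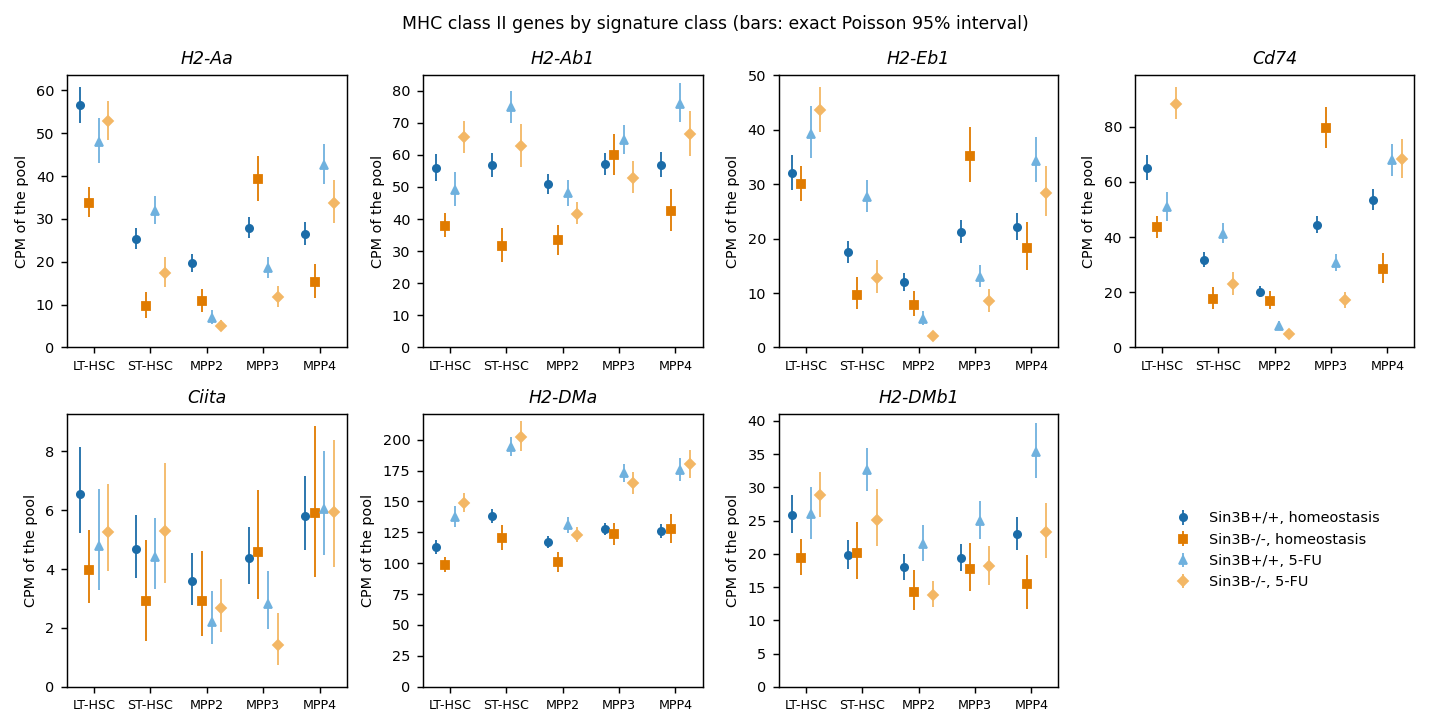
Level of each member (CPM of the pool, vertical axis from 0) in the 5 signature classes (horizontal axis), with 1 symbol per genotype and condition and exact Poisson 95% intervals as bars. H2-Aa, H2-Eb1 and Cd74 were lowest in the MPP2 class, apart from H2-Aa in Sin3B-/- cells at homeostasis, while H2-DMa stayed between 98.9 and 203 CPM throughout.

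The order of the classes was not a simple descent from stem to progenitor. After 5-FU, H2-Aa stood in Sin3B+/+ cells at 48.0 CPM in the LT-HSC class, 42.6 CPM in MPP4, 31.9 CPM in ST-HSC, 18.4 CPM in MPP3 and 7.0 CPM in MPP2. In Sin3B-/- cells it stood at 52.8, 33.8, 17.3, 11.7 and 5.0 CPM in the same order of classes. MPP4, the lymphoid-primed class, thus came next to the LT-HSC class, and MPP2, the megakaryocyte- and erythroid-primed class, came last. The intervals of the LT-HSC and MPP4 levels overlapped in Sin3B+/+ cells.

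At homeostasis the same gene stood in Sin3B+/+ cells at 56.5 CPM in the LT-HSC class and between 19.7 CPM (MPP2) and 27.9 CPM (MPP3) in the other classes. H2-Eb1 and Cd74 were lowest in MPP2 as well, at 12.0 and 20.2 CPM in Sin3B+/+ cells at homeostasis, 5.3 and 7.9 CPM in Sin3B+/+ cells after 5-FU and 2.1 and 4.7 CPM in Sin3B-/- cells after 5-FU. In Sin3B-/- cells at homeostasis MPP2 and ST-HSC were both low, with 7.8 and 9.6 CPM of H2-Eb1, 16.9 and 17.7 CPM of Cd74 and 10.7 and 9.6 CPM of H2-Aa, and their intervals overlapped.

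The share of positive cells gave the same order as the level in Sin3B+/+ cells at homeostasis for H2-Aa at both ends. LT-HSC-class cells were positive at 19.3% [17.5 to 21.2], and MPP2 cells at 5.5% [4.5 to 6.7]. Cd74 was found in 17.6% of LT-HSC-class cells, 15.3% of MPP4 cells and 6.2% of MPP2 cells. H2-Ab1 lay between 17.0% and 20.2% in all 5 classes, and H2-DMa between 35.9% and 42.3%.

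**Figure D2:**
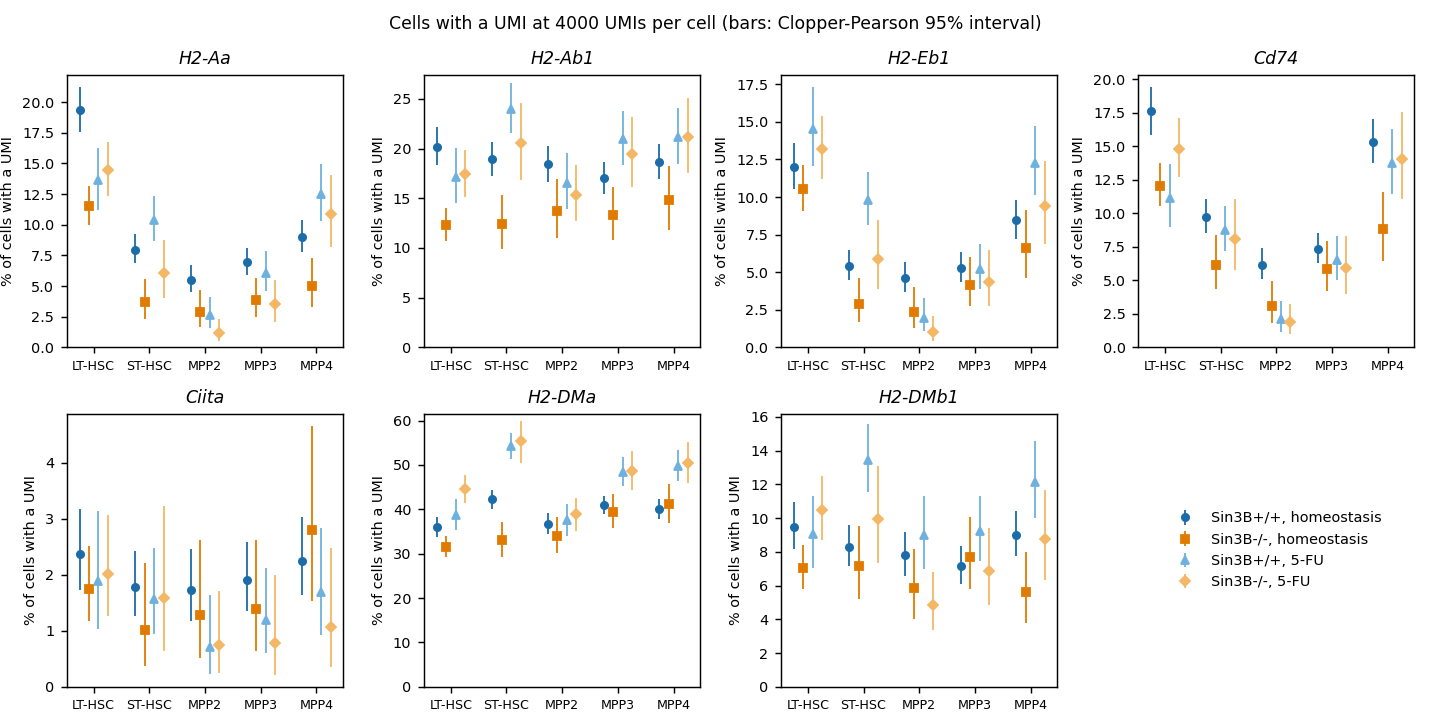
Share of cells with at least 1 UMI of each member (vertical axis, percent, cells thinned to 4000 UMIs) in the 5 signature classes (horizontal axis), with Clopper-Pearson 95% intervals as bars. In the Sin3B+/+ pool at homeostasis the share for H2-Aa was 19.3% in LT-HSC-class and 5.5% in MPP2 cells, while H2-Ab1 stayed between 17.0% and 20.2%.

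A small number of cells carried a large part of the class II transcripts. Cells with 20 or more UMIs of H2-Aa, H2-Ab1, H2-Eb1 and Cd74 together numbered 13 of 10184 Sin3B+/+ and 7 of 4108 Sin3B-/- cells at homeostasis, and 32 cells of each genotype after 5-FU. They held 12.0% and 23.9% of the UMIs of these 4 genes at homeostasis and 15.01% and 22.5% after 5-FU. The highest cell held 250 UMIs. At homeostasis 6 of the 13 and 6 of the 7 were placed in the MPP3 class, and after 5-FU 18 of the 32 Sin3B-/- cells were placed in the LT-HSC class, against 6 of the 32 Sin3B+/+ cells.

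These high cells differed between the libraries in the markers they carried. At homeostasis the 9 dendritic cell markers summed to 480 CPM in Sin3B+/+ and 560.4 CPM in Sin3B-/- high cells, against 28.2 and 13.6 CPM in the remaining cells, with 6 of the 9 genes detected in each. Clec9a, which marks conventional dendritic cells, was found in 10 of the 20 cells and in 239 of the 14272 remaining cells. The myeloid gene Lyz2 was found in 15 of the 20, but also in 8118 of the remaining cells. Other genes of these lists went the other way: Clec10a and C1qa were at 0 CPM in the high cells, against 8.6 and 2.6 CPM in the remaining cells. The monocyte and macrophage markers of the high cells summed to 864 and 961 CPM, against 151 and 170.2 CPM, with 5 and 4 of 8 genes detected.

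After 5-FU, dendritic markers were at 10.5 and 6.7 CPM in the high cells, with 2 and 1 of 9 genes detected and Itgax, Siglech and Clec10a at 0. B lineage markers were at 252 and 476 CPM there, against 40.3 and 28.7 CPM in the remaining cells, with 7 of 9 genes detected in each. Cd79a was found in 8 of the 64 cells and in 45 of the 8098 remaining cells, so most of the high cells held no Cd79a UMI. Cd79b was found in 23 of the 64, but also in 2109 of the remaining cells. Other B lineage markers went the other way: Vpreb1 and Igll1 were at 0 CPM in the high cells, against 3.1 and 0.75 CPM in the remaining cells. The summed stem markers, at 1340 and 1272 CPM, were above the levels of 875 and 946 CPM in the remaining cells. The share of cells with 2 or more stem marker UMIs was not clearly higher, at 90.6% and 84.4% of the high cells against 90.5% and 95.7% of the remaining cells. At homeostasis the stem markers were lower in the high cells, at 1080 and 416 CPM, against 1638 and 2064 CPM in the remaining cells.

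Without the high cells, which were set apart after their values were seen, the differences between LT-HSC and MPP classes at homeostasis were larger. H2-Aa was then higher in the LT-HSC class by 1.48 [1.34 to 1.62] in Sin3B+/+ and 1.75 [1.48 to 2.03] in Sin3B-/- cells, and Cd74 by 1.18 [1.05 to 1.30] and 1.56 [1.33 to 1.79]. In the Sin3B-/- pool at homeostasis, 6 of the 7 high cells left out were in MPP3. After 5-FU without such cells H2-Aa differed by 1.38 and 1.79, and Cd74 by 0.88 and 1.80.

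**Figure D3:**
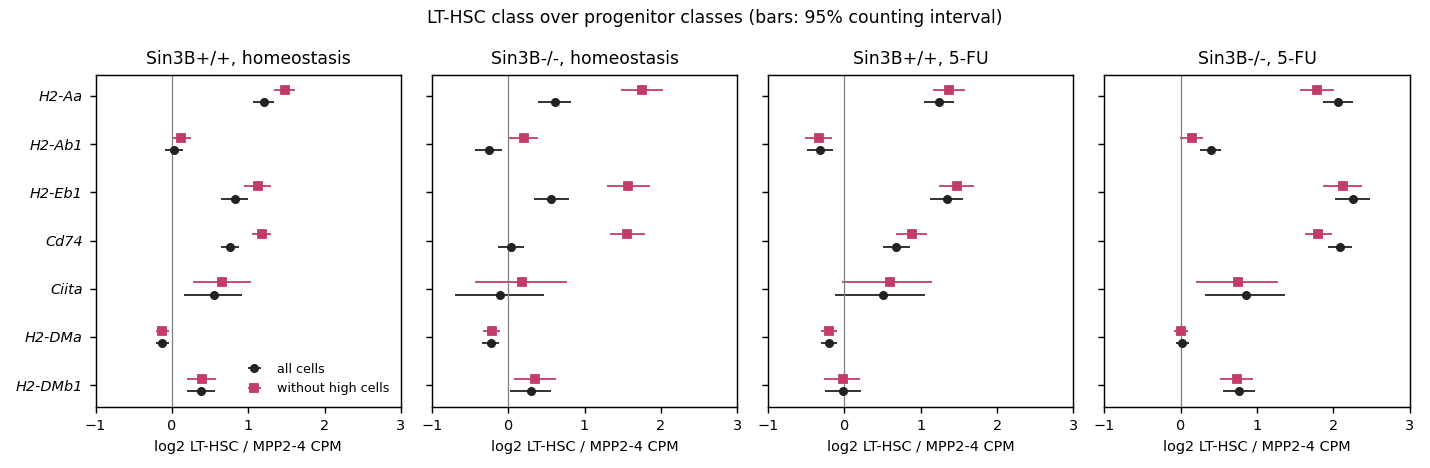
Log2 ratio of the CPM in the LT-HSC class over the MPP2 to MPP4 classes (horizontal axis) for each member, with 1 panel per genotype and condition, 95% counting intervals as bars, and values with all cells (circles) and without cells of 20 or more class II UMIs (squares). H2-Aa, H2-Eb1 and Cd74 lay to the right of 0 in every panel without the high cells, whereas H2-DMa lay between -0.23 and 0.02 with all cells. H2-Ab1 in Sin3B-/- cells at homeostasis turned from -0.25 to 0.21 without the high cells.

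Between genotypes, levels were compared over all cells first. At homeostasis H2-Ab1 stood at 55.8 CPM in Sin3B+/+ and 40.8 CPM in Sin3B-/- cells, H2-Aa at 30.4 and 25.1 CPM, and H2-DMa at 125 and 110.4 CPM. In Sin3B-/- cells 6 of 7 members were lower, 5 of them with an interval below 0 (against 23.3% of all genes), by 0.45 for H2-Ab1, 0.31 for Ciita, 0.27 for H2-Aa, 0.25 for H2-DMb1 and 0.18 for H2-DMa. Cd74 was at 42.4 and 39.8 CPM, a difference of -0.09 [-0.19 to 0.00] that was -0.41 [-0.52 to -0.30] without the high cells, -0.47 [-0.62 to -0.33] without cells carrying other-type markers and 0.78 [0.65 to 0.90] under the 80% tag rule. H2-Eb1, at 20.8 and 22.8 CPM, was higher by 0.13 [0.01 to 0.26] (24.5% of all genes were higher with an interval above 0), but it was -0.06 with the 5 classes weighted equally, 0.00 without the high cells and 0.81 [0.63 to 0.99] under the 80% tag rule.

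No member differed by 2-fold over all cells at homeostasis, where 1.9% of genes were at least 2-fold higher and 1.85% at least 2-fold lower, nor after 5-FU, where these shares were 1.25% and 1.51%. The 7 members summed were at 299.9 CPM in Sin3B+/+ and 260.4 CPM in Sin3B-/- cells at homeostasis, a difference of -0.20 [-0.24 to -0.17]. This direction depended on how genotypes were assigned: it was 0.18 [0.13 to 0.24] under the 80% tag rule, where, beside Cd74 and H2-Eb1, H2-Aa was at 0.39 [0.22 to 0.55], H2-Ab1 at 0.01 and Ciita at 0.16. That rule kept 869 Sin3B-/- cells, 6 of them high cells, in place of 4108 with 7 high cells.

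After 5-FU, 5 of 7 members were lower over all Sin3B-/- cells with an interval below 0 (against 27.7% of all genes). H2-DMb1 was at 28.0 CPM in Sin3B+/+ and 20.8 CPM in Sin3B-/- cells, a difference of -0.43 [-0.55 to -0.31]. H2-Eb1 differed by -0.26, H2-Aa by -0.19, H2-Ab1 by -0.16 and H2-DMa by -0.09, but H2-Aa and H2-Eb1 turned to 0.12 and 0.00 when CPM was averaged per cell, and H2-DMa to 0.01 with the 5 classes weighted equally. Cd74, at 38.1 and 41.8 CPM, was higher by 0.14 [0.04 to 0.23] (23.5% of all genes were higher with an interval above 0) and turned to -0.07 [-0.19 to 0.04] without the high cells and to -0.20 [-0.29 to -0.12] without the quality filter. It was 0.60 with CPM averaged per cell and 0.46 [0.30 to 0.62] without cells carrying other-type markers. Ciita was at 4.0 and 4.1 CPM. The pools also differed in makeup. Of the cells with at least 4000 UMIs, the only ones classed, 1812 of 9700 Sin3B+/+ and 1598 of 3880 Sin3B-/- cells were in the LT-HSC class at homeostasis. After 5-FU these were 742 of 4343 and 1039 of 3137.

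Within the LT-HSC class at homeostasis all 7 members were lower in Sin3B-/- cells, 6 of them with an interval below 0 (against 13.8% of all genes). H2-Aa stood at 56.5 CPM in Sin3B+/+ and 33.8 CPM in Sin3B-/- cells, a difference of -0.74 [-0.93 to -0.56]. Cd74 stood at 65.1 and 43.6 CPM and H2-Ab1 at 56.0 and 37.9 CPM, differences of -0.58 and -0.56. Ciita differed by -0.72 [-1.30 to -0.18] on 81 and 43 UMIs, though it turned to 0.09 [-0.71 to 0.80] under the 80% tag rule. H2-Eb1, at 32.1 and 30.0 CPM, differed by -0.10 [-0.31 to 0.12].

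The share of positive cells was lower too. H2-Aa was found in 19.3% [17.5 to 21.2] of Sin3B+/+ and 11.5% [10.0 to 13.2] of Sin3B-/- LT-HSC-class cells, H2-Ab1 in 20.2% [18.4 to 22.1] and 12.3% [10.7 to 14.0], and Cd74 in 17.6% [15.9 to 19.4] and 12.1% [10.5 to 13.8]. None of these intervals overlapped. Those of H2-Eb1, Ciita, H2-DMa and H2-DMb1 did. The share of all genes without such an overlap was not computed, so these members cannot be set against a background. Any member was found in 66.8% [64.6 to 69.0] and 55.2% [52.7 to 57.7]. Of the high cells, 2 Sin3B+/+ and 0 Sin3B-/- cells fell in this class, and without them H2-Aa differed by -0.72 and Cd74 by -0.54.

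After 5-FU the 7 members had higher levels in Sin3B-/- cells of the LT-HSC class, 2 of them with an interval above 0 (against 11.4% of all genes). Cd74 stood at 50.9 CPM in Sin3B+/+ and 88.4 CPM in Sin3B-/- cells, a difference of 0.79 [0.62 to 0.98], and H2-Ab1 at 49.2 and 65.4 CPM, a difference of 0.41 [0.22 to 0.61]. H2-Aa, at 48.0 and 52.8 CPM, and H2-Eb1, at 39.3 and 43.5 CPM, differed by 0.14 [-0.06 to 0.34] and 0.15 [-0.07 to 0.37]. Of the high cells, 6 Sin3B+/+ and 18 Sin3B-/- cells fell in this class. Without any high cells Cd74 differed by 0.49 [0.28 to 0.70] and H2-Ab1 by 0.25 [0.05 to 0.46], while H2-Aa and H2-Eb1 turned to -0.15 [-0.37 to 0.07] and -0.10 [-0.34 to 0.15].

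The shares of positive LT-HSC-class cells after 5-FU all had overlapping intervals, which was not computed for all genes here either. Cd74 was found in 11.2% [9.0 to 13.7] of Sin3B+/+ and 14.8% [12.7 to 17.1] of Sin3B-/- cells, H2-Ab1 in 17.1% and 17.4%, and H2-Aa in 13.6% and 14.4%. Without cells carrying such markers of other types, Cd74 differed by 0.44 [0.16 to 0.74] and the sum of members by 0.04 [-0.09 to 0.16]. In this setting H2-Aa was at -0.21, H2-Eb1 at -0.29, H2-DMb1 at -0.17, H2-DMa at -0.01 and Ciita at -1.26 [-2.60 to -0.03]. The share of all genes below 0 in this setting was not computed. Cells with other-type markers were common, since 59.7% of Sin3B+/+ and 68.3% of Sin3B-/- cells outside the high cells had 2 or more UMIs of the monocyte and macrophage list after 5-FU.

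**Figure D4:**
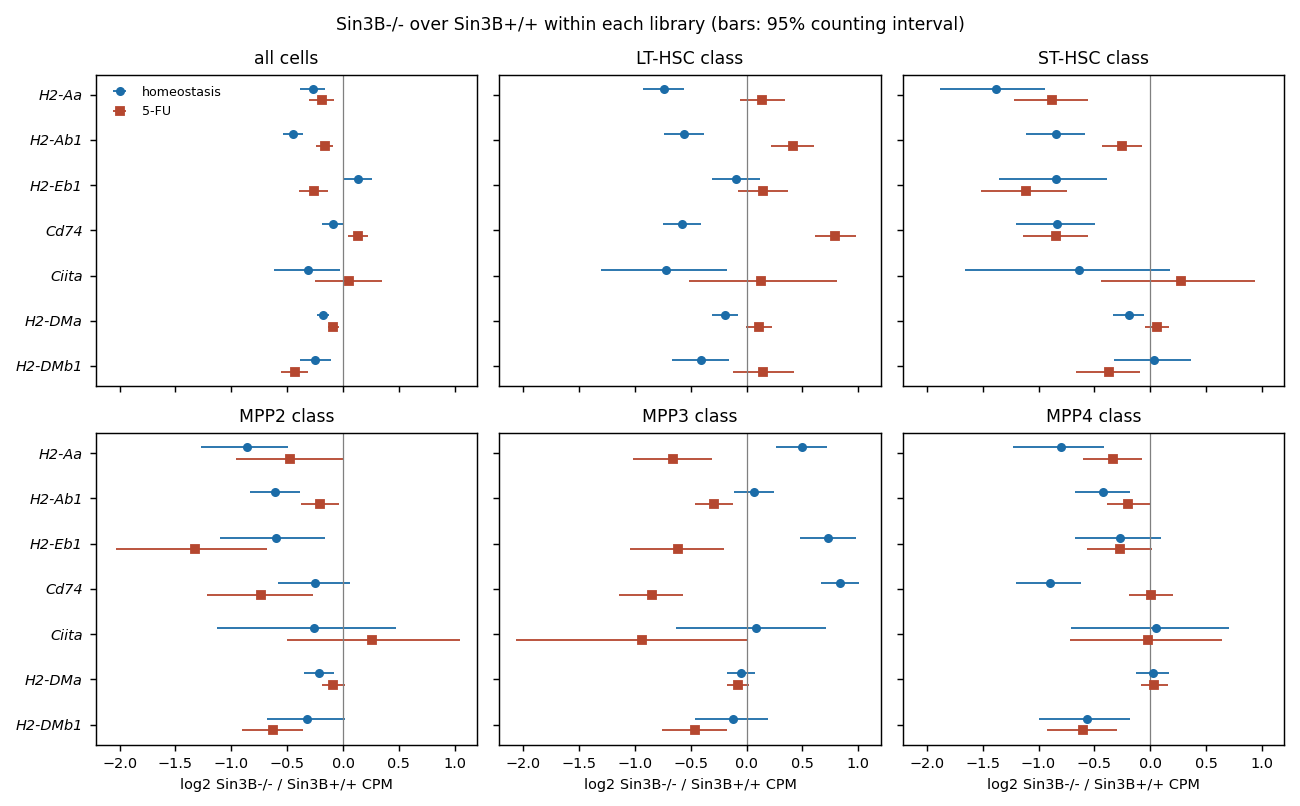
Log2 ratio of the Sin3B-/- over the Sin3B+/+ CPM (horizontal axis) of each member over all cells and in each signature class, at homeostasis (circles) and after 5-FU (squares), with 95% counting intervals as bars. In the LT-HSC class Cd74 was at -0.58 at homeostasis and 0.79 after 5-FU, and in the ST-HSC class H2-Aa, H2-Eb1 and Cd74 were below -0.8 in both libraries. Over all cells after 5-FU, H2-Aa and H2-Eb1 turned to 0.12 and 0.00 when CPM was averaged per cell.

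In the ST-HSC class the chain genes and Cd74 were lower in Sin3B-/- cells in both libraries. H2-Aa stood at 25.3 CPM in Sin3B+/+ and 9.6 CPM in Sin3B-/- cells at homeostasis, a difference of -1.38 [-1.88 to -0.94], and at 31.9 and 17.3 CPM after 5-FU, a difference of -0.88 [-1.22 to -0.56]. H2-Eb1 differed by -0.84 [-1.35 to -0.39] and -1.11 [-1.51 to -0.74], and Cd74 by -0.83 [-1.20 to -0.50] and -0.84 [-1.14 to -0.56]. H2-Aa at homeostasis and H2-Eb1 after 5-FU were at least 2-fold lower, as were 2.02% and 0.988% of all genes in this class. The share of H2-Aa-positive ST-HSC-class cells was 8.0% [6.9 to 9.2] and 3.7% [2.4 to 5.6] at homeostasis, and 10.4% [8.7 to 12.3] and 6.1% [4.1 to 8.7] after 5-FU. This class held 1 Sin3B+/+ and 0 Sin3B-/- high cells at homeostasis, and 9 and 1 of them after 5-FU. Without high cells H2-Aa differed by -1.17 [-1.68 to -0.73] and -0.70 [-1.06 to -0.37], H2-Eb1 by -0.65 and -1.09, and Cd74 by -0.63 and -0.64. The 80% tag rule left 81 Sin3B-/- cells in this class at homeostasis, and the intervals of H2-Aa, at -0.70 [-1.78 to 0.10], H2-Eb1, at -1.07 [-2.85 to 0.05], and Cd74, at -0.45 [-1.26 to 0.19], then held 0. So did those of H2-Eb1 at homeostasis and H2-Ab1 after 5-FU without cells carrying other-type markers. Without the quality filter the differences after 5-FU were -1.35, -1.60 and -1.498 for H2-Aa, H2-Eb1 and Cd74.

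MPP2 was the other class in which a member differed by 2-fold, H2-Eb1 after 5-FU, at 5.3 CPM in Sin3B+/+ and 2.1 CPM in Sin3B-/- cells, a difference of -1.33 [-2.03 to -0.68] that was -1.36 without high cells (0.92% of all genes were at least 2-fold lower). At homeostasis Cd74 and H2-Aa in MPP2 differed by -0.25 [-0.58 to 0.06] and -0.86 [-1.27 to -0.49], and by -1.20 [-1.71 to -0.75] and -1.10 [-1.58 to -0.66] without high cells. Under the 80% tag rule, with 118 Sin3B-/- cells, Cd74 in MPP2 at homeostasis turned to 1.43 [1.04 to 1.79] and H2-Aa was at -0.03 [-0.64 to 0.49]. In MPP4 the largest difference was that of Cd74 at homeostasis, at 53.4 and 28.5 CPM, which came to -0.90 [-1.20 to -0.62], with 15.3% [13.7 to 17.0] and 8.8% [6.5 to 11.6] of cells positive. After 5-FU Cd74 in MPP4 was at 67.8 and 68.2 CPM, a difference of 0.01 that was 0.75 [0.45 to 1.04] without cells carrying other-type markers.

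In MPP3 at homeostasis the direction depended on the cells kept. Cd74 stood at 44.5 CPM in Sin3B+/+ and 79.4 CPM in Sin3B-/- cells, a difference of 0.84 [0.67 to 1.003], and H2-Eb1 and H2-Aa differed by 0.73 and 0.49. These 3 members were the ones with an interval above 0 (against 13.4% of all genes). Without the 12 high cells of this class, Cd74, H2-Eb1 and H2-Aa turned to -0.62 [-1.001 to -0.28], -0.63 [-1.13 to -0.17] and -1.05 [-1.51 to -0.63]. Without cells carrying other-type markers these 3 members were at -0.59, -0.83 and -0.62. Other settings moved them the other way: under the 80% tag rule they were at 2.41 [2.22 to 2.60], 2.28 [1.99 to 2.56] and 1.95 [1.68 to 2.21], and without the quality filter at 1.27, 1.12 and 0.97. With all cells, H2-Aa was found in 6.9% [5.9 to 8.1] of Sin3B+/+ and 3.9% [2.5 to 5.6] of Sin3B-/- cells of this class. The intervals overlapped for Cd74, at 7.4% [6.3 to 8.6] and 5.9% [4.2 to 8.0], and for H2-Eb1, at 5.3% [4.4 to 6.3] and 4.2% [2.8 to 6.0], and H2-DMb1 was found in 7.2% and 7.7%. After 5-FU Cd74 was at 30.8 and 17.0 CPM in MPP3, a difference of -0.85 [-1.14 to -0.57], and at -0.25 [-0.58 to 0.07] without high cells. When cells with other-type markers were left out, H2-Aa and Cd74 in MPP3 after 5-FU turned to 0.96 [0.38 to 1.52] and 0.26 [-0.23 to 0.73].

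**Figure D5:**
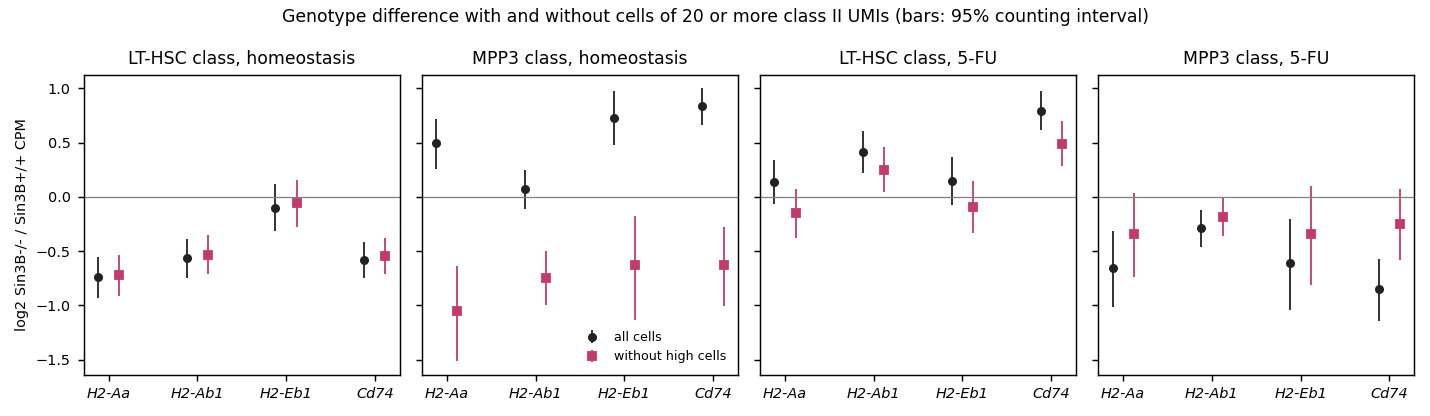
Log2 ratio of the Sin3B-/- over the Sin3B+/+ CPM (vertical axis) of H2-Aa, H2-Ab1, H2-Eb1 and Cd74 in the LT-HSC and MPP3 classes of each library, with all cells (circles) and without cells of 20 or more UMIs of these 4 genes (squares), and 95% counting intervals as bars. In MPP3 at homeostasis Cd74 moved from 0.84 to -0.62, whereas in the LT-HSC class at homeostasis it moved from -0.58 to -0.54.

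Genes around the members were described by list, with no test of a list against the members. Of the 15 measured genes of the class II accessory list, which holds proteases, modulators of H2-DM and costimulators, 13 had enough UMIs at homeostasis and 11 after 5-FU. None differed by 2-fold between genotypes over all cells, and their median difference was -0.15 and -0.01, against -0.25 and -0.16 for the members and 0.01 and -0.02 for all genes. In MPP3 at homeostasis 4 of 12 accessory genes were higher with an interval above 0 and 0 were lower with an interval below 0 (against 13.4% and 13.2% of all genes), with a median of 0.10, against 0.08 for the members. Of these, March1, a ubiquitin ligase that lowers class II at the cell surface, was 2-fold higher (against 0.978% of all genes), at 1.9 CPM in Sin3B+/+ and 4.4 CPM in Sin3B-/- cells (1.24 [0.43 to 2.02]) on 35 and 25 UMIs. These counts moved with the high cells of MPP3: without them 2 of 10 accessory genes were higher and 0 lower, and March1 no longer had 50 UMIs. Over all cells, Ctss, the protease that trims the invariant chain, differed most in this list, at 22.99 CPM in Sin3B+/+ and 14.97 CPM in Sin3B-/- cells after 5-FU (-0.62 [-0.76 to -0.48]).

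Against progenitors, the accessory list held genes in both directions. H2-Ob, a chain of the H2-O dimer that restrains H2-DM, was lower in the LT-HSC class in all 4 pools, by 1.23, 1.10, 0.95 and 0.91, and the lysosomal reductase gene Ifi30 by 1.36, 2.01, 1.37 and 1.74. The protease gene Ctsl was higher by 0.75, 0.87, 0.92 and 1.04. These 3 genes were named after their values were seen. The list's median was 0.09, -0.18, -0.06 and -0.07, against 0.55, 0.04, 0.50 and 0.85 for the 7 members.

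All 14 regulators, among them the X box factors Rfx5, Rfxap and Rfxank and the Y box factors Nfya, Nfyb and Nfyc, had enough UMIs, and none differed by 2-fold between genotypes over all cells in either library. Their medians were 0.02 and -0.07. Irf1, an interferon-induced activator, differed most, at 57.9 CPM in Sin3B+/+ and 46.1 CPM in Sin3B-/- cells after 5-FU (-0.33 [-0.41 to -0.25]). None was 2-fold higher in the LT-HSC class in any pool.

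The 13 class I pathway genes, which present peptides made inside the cell, had medians of 0.05 and -0.01 between genotypes, with none past 2-fold. H2-T23, a nonclassical class I gene, differed most, at 84.7 CPM in Sin3B+/+ and 114 CPM in Sin3B-/- cells at homeostasis (0.43 [0.37 to 0.49]). Of the 15 interferon response genes, 13 had enough UMIs at homeostasis and 15 after 5-FU, with medians of -0.05 and 0.02 and none past 2-fold. In the LT-HSC class after 5-FU, where Cd74 and H2-Ab1 were higher in Sin3B-/- cells, 6 of the 15 were higher with an interval above 0 and 0 were lower (against 11.4% and 12.4% of all genes), with a median of 0.28. The list did not run with the members in every class. Its median in the LT-HSC class at homeostasis was -0.06, against -0.56 for the members. After 5-FU it was 0.10 in both ST-HSC and MPP2, against -0.37 and -0.47 for the members. In MPP4 at homeostasis 0 of 12 were higher and 4 were lower (against 10.9% and 12.7% of all genes), with a median of -0.36. The list's medians in ST-HSC and MPP2 at homeostasis were -0.14 and -0.21, against -0.004 and -0.006 for all genes. Ifi27l2a, an interferon-induced gene, differed most, at 30.5 and 16.0 CPM at homeostasis (-0.93 [-1.07 to -0.79]).

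In the LT-HSC class against the MPP classes, class I genes had medians of 0.13, 0.17, 0.22 and 0.27 in the 4 pools, with none past 2-fold. Interferon response genes had medians of 0.23, 0.31, 0.50 and 0.96. In Sin3B-/- cells after 5-FU, 6 of these 15 genes were at least 2-fold higher in the LT-HSC class (against 7.02% of all genes), against 1 of 13, 2 of 13 and 2 of 15 in the first 3 pools (against 5.69%, 4.94% and 4.13% of all genes). Ifi27l2a was at least 2-fold lower in each of the 4 pools (against 4.6%, 4.46%, 4.38% and 5.27%). In the pool with 6 such genes, Iigp1, an interferon-induced GTPase, was at 124 and 20.6 CPM. This gene was named after its values were seen.

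The genes whose level ran most like the summed members over the 10 pools of each library (5 classes by 2 genotypes) were Pld2, with Pearson correlations of 0.95 at homeostasis and 0.90 after 5-FU, 4921531C22Rik (0.87 and 0.96), Cpt1a (0.86 and 0.95), Sipa1l3 (0.85 and 0.88) and Pogk (0.84 and 0.95). They were the highest of 11145 genes compared when genes were ranked by the smaller of their correlations in the libraries. The highest of so many genes over 10 pools can reach large values by selection alone, and this was not tested. H2-DMa, the member with the highest level, makes up the largest part of the sum, so these genes need not run like H2-Aa, H2-Eb1 or Cd74. The pools of a library share its preparation and have different depths. Among the members, the pool levels of H2-Aa had correlations of 0.91 and 0.99 with H2-Eb1 and of 0.90 and 0.98 with Cd74, but of 0.04 and 0.41 with H2-DMa.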

How the data were processed

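The 4 samples were a cDNA and a hashtag library for each condition. The deposited values were raw UMI counts that the authors had made with Cell Ranger (version 4 for homeostasis and 6.0.1 for 5-FU, per the file headers). The submitters' processing notes name mm9, and no annotation is given in the sources used here. The homeostasis matrix listed 6794880 barcodes, unfiltered, and the 5-FU matrix 12753. Gene names of the homeostasis matrix came from the 5-FU feature list, and gene sums correlated at 0.926 in this row order and at 0.392 or less with rows shifted by 1 to 3.

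Barcodes with at least 2921 UMIs (10% of the 99th percentile of the 10000 largest) were cells at homeostasis. Genotypes followed from the hashtags (B0096 for wild type, B0157 for knockout, as the study's methods give them) with HTODemux in Seurat 5.3.0 at quantile 0.99. Barcodes without a tag call (26.3% and 25.8%) or with both tags (6.02% and 3.40%) were left out, which removes doublets of unlike genotype, while those of 1 genotype remain. Cells among the 2% highest or lowest in UMI number, gene number or mitochondrial share were dropped, and so were those holding at least 2 UMIs from 9 genes of mature lineages. The study's removal of lineage-primed cells was not repeated. Signature classes used the published signatures that the study's supplement lists by cell type (99 to 117 genes, members and accessory genes left out) on cells of at least 4000 UMIs, thinned to that depth and standardized within each library.

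UMIs were summed per pool (31901720 to 82876977 in all), 0.5 was added for log2 ratios, and intervals were exact conditional binomial for ratios, Poisson for CPM and Clopper-Pearson for shares, all covering counting error only. A gene needed 50 UMIs in the pools compared. The ratio calculation was run on simulated Poisson counts of pools. These had no spread between cells or mice, so the run could not show whether the intervals are wide enough for the real counts. numpy 2.4.6, scipy 1.17.1, pandas 2.3.3 and R 4.3.3 were used. The members and gene lists were chosen with earlier results of these data known. The text names all 7 members and, in each list, the gene past 2-fold between genotypes or otherwise the one that differed most. It also names the 5 genes most like the summed members among those with 200 UMIs, and marks others as named after their values were seen. Alternatives were another tag rule, no lineage or quality filter, other scalings, depths and stem definitions, and cells with other markers left out.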

Additional observations from a re-analysis of the deposited data

Results flagged for a closer look

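Some genotype differences had opposite directions in the homeostasis and 5-FU libraries, each with an interval that left out 0. The difference between the libraries was not tested, because each genotype was 1 pool per library. Values are log2 ratios of Sin3B-/- over Sin3B+/+.

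Over all cells, H2-Eb1 was at 0.135 at homeostasis and -0.262 after 5-FU. In the LT-HSC class, H2-Ab1 was at -0.563 and 0.411, Cd74 at -0.577 and 0.795, and the members summed at -0.409 and 0.283. In the MPP3 class the order was turned around: H2-Aa was at 0.494 and -0.656, H2-Eb1 at 0.732 and -0.613, Cd74 at 0.836 and -0.85, and the members summed at 0.251 and -0.258. Without cells of 20 or more class II UMIs, the sum was at -0.39 and 0.13 in the LT-HSC class and at -0.32 and -0.16 in MPP3. Without cells carrying other-type markers the sum was at -0.53 and 0.037 [-0.09 to 0.16] in the LT-HSC class and at -0.32 and 0.12 [-0.05 to 0.28] in MPP3, so that neither value after 5-FU had an interval that left out 0. Under the 80% tag rule the sum in MPP3 at homeostasis was at 1.28.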

How the results depend on the processing

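Values are log2 ratios of the summed members unless a gene is named. No paired analysis was possible because each genotype was 1 pool per library and the result comes from no test. The rule that 1 tag holds 80% of hashtag UMIs gave 0.18 over all cells at homeostasis (H2-Aa 0.39, H2-Ab1 0.014, Ciita 0.16) and -0.55 in the LT-HSC class (Ciita 0.086) and 1.28 in MPP3 between genotypes, -0.90 for LT-HSC over MPP in Sin3B-/- cells at homeostasis (H2-Aa -0.99, H2-Eb1 -0.97, Cd74 -1.65), and -0.16 over all cells after 5-FU. Without the lineage filter LT-HSC over MPP was 0.25 in Sin3B+/+ cells after 5-FU. Without the quality filter the genotype differences over all cells were -0.15 and -0.24 (Cd74 after 5-FU -0.20) and in MPP3 at homeostasis 0.51, and LT-HSC over MPP was -0.088 in Sin3B-/- cells at homeostasis. With CPM averaged per cell the genotype difference after 5-FU was 0.066 (H2-Aa 0.12, H2-Eb1 0.0017), and LT-HSC over MPP in Sin3B-/- cells 0.66. With the median gene set to 0, LT-HSC over MPP after 5-FU was 0.080 and 0.61 in Sin3B+/+ and Sin3B-/- cells. With 5 classes weighted equally the genotype difference after 5-FU was -0.081 (H2-DMa 0.014), and H2-Eb1 at homeostasis was -0.056. With stem and progenitor marker gates LT-HSC over MPP after 5-FU was 0.10 and 0.62, and with classes from unthinned cells 0.66 in Sin3B-/- cells.

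Without cells carrying other-type markers the genotype differences were -0.33 over all cells and -0.53 in the LT-HSC class at homeostasis, and -0.021 (H2-Aa 0.062) and 0.037 after 5-FU. MPP3 was then -0.32 at homeostasis (H2-Aa -0.62, H2-Eb1 -0.83, Cd74 -0.59) and 0.12 after 5-FU (H2-Aa 0.96, H2-Eb1 0.33, Cd74 0.26). LT-HSC over MPP was 0.56 and 0.40 (H2-Ab1 in Sin3B-/- cells 0.23) at homeostasis and 0.51 and 0.57 (Ciita in Sin3B-/- cells -0.12) after 5-FU.

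Further alternatives were chosen after seeing the data. Without cells of 20 or more class II UMIs the genotype differences were -0.30 (H2-Eb1 -0.00013) at homeostasis, and -0.17 (Cd74 -0.073) and, in the LT-HSC class, 0.13 after 5-FU. MPP3 at homeostasis was -0.32 (H2-Aa -1.05, H2-Eb1 -0.63, Cd74 -0.62). LT-HSC over MPP was 0.43 and 0.41 (H2-Ab1 in Sin3B-/- cells 0.21) at homeostasis and 0.54 in Sin3B-/- cells after 5-FU. HTODemux without barcodes of 0 hashtag UMIs gave -0.17 over all cells after 5-FU.

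The share of cells with any member was 81.3% and 72.4% at homeostasis and 86.1% and 89.3% after 5-FU without thinning, and 16.2%, 13.2%, 23.7% and 20.6% with 2 UMIs required. Of 948 values under all alternatives, 707 stayed within the counting interval of the reported value (a count, at the same number). Of the 720 that were ratios, 79 changed sign, 31 of them from a value whose interval left out 0 and 48 from one whose interval held 0. The causes were not tested. Requiring 200 UMIs or none left 0 members past 2-fold between genotypes over all cells. Depth limits Ciita most, with 125 to 405 UMIs per pool.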

Other observations

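Barcodes that HTODemux gave no tag are not in the main comparisons. The 80% tag rule does not use that call, so it can take such barcodes in. After 5-FU it kept 4956 Sin3B+/+ and 4054 Sin3B-/- cells, against 4855 and 3307 with HTODemux. At homeostasis 5775 of the barcodes without a tag call had more UMIs of the Sin3B-/- tag, with the members summed at 234 CPM and Sin3b at 25.8 CPM, and 508 had more of the Sin3B+/+ tag, at 307 and 68.3 CPM. After 5-FU, 2652 had more of the Sin3B-/- tag, at 301 and 17.7 CPM, and 638 had more of the Sin3B+/+ tag, at 263 and 68.5 CPM.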
